A study of Mus musculus with 11 samples.

Results

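The Ras, Raf and ERK cascade is described here through 7 of its genes, measured in mouse hippocampal CA1: the small GTPases Hras and Nras, the kinases Araf and Braf, the kinases Map2k1 and Map2k2, and the kinase Mapk3. The genes were chosen by name, with earlier results of these data known. All 7 were among the 48709 gene identifiers counted and among the 17293 genes that passed the filter on low counts. Polyadenylated RNA was sequenced from 6 libraries of CamkdeltaC transgenic mice and 5 libraries of littermate controls, all at 3 months of age and with both sexes included. The transgene carries CamkdeltaC, a cytosolic splice variant of CaM kinase II delta. In this line a promoter active in heart muscle drives it, so CA1 is not the tissue in which it was designed to act. Going by its title, the study is about memory impairment in heart failure, and the RNA of CA1, a region used in memory, was compared for that reason.

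Ras proteins are molecular switches that sit on the inner face of the membrane and are active when they carry GTP. Active Ras recruits Raf kinases, Raf phosphorylates the MEK kinases encoded by Map2k1 and Map2k2, and MEK phosphorylates ERK, of which Mapk3 encodes the form ERK1. In hippocampal neurons the cascade carries signals from glutamate receptors and neurotrophin receptors to the synapse and the nucleus and is used in lasting synaptic plasticity and memory. Its activity is set by phosphorylation and GTP loading, which RNA levels do not measure.

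Transgenic libraries held 24403918 to 34153726 counts, while control 5 held 14263784 and the other controls 31679533 to 36898689. The libraries differed in how strongly counts depended on GC content, the share of G and C bases in a transcript. The slope of log2 CPM, the counts of a gene scaled to the size of its library, on GC content, per 10 percentage points, was 0.27, 0.26, 0.18, 0.10, 0.02 and -0.06 in transgenic libraries 1 to 6 and -0.12, -0.06, -0.20, -0.22 and -0.16 in control libraries 1 to 5. Every transgenic slope lay above every control slope, transgenic 6 by a small margin, so the GC slope and the genotype cannot be told apart in these libraries. Xist, the transcript of the inactive X chromosome, was high in transgenic 1 to 3 and controls 1, 3 and 4 (591 to 1110 CPM) and low in the other 5 libraries (0.334 to 1.49 CPM). The 3 transgenic libraries with high Xist were also those with the steepest GC slopes. Transgenic 5 stood apart in that it had little Xist (0.731 CPM) and 0 counts of Ddx3y, a gene of the Y chromosome. Without it Hras (edgeR adjusted p = 0.0418), Map2k2 (0.0278) and Braf (0.0112) were called as with it. CA1 pyramidal neuron markers summed to 5746 to 8011 CPM in transgenic and 6043 to 7017 CPM in control libraries, and 0 of 9 passed the test. Of 11 measured CA3, CA2 and dentate markers 0 passed, with sums of 209 to 371 CPM in transgenic and 199 to 403 CPM in control libraries. Microglial markers summed to 320 to 429 CPM in transgenic and 286 to 347 CPM in control libraries. Of these, 5 of 10 were called higher in transgenic libraries, beside 7.41% of all genes tested. With the GC trend removed 0 of 10 passed, beside 1.98% of all genes, and their median log2 fold change was 0.095 in place of 0.259. Trem2, 1 of the 10, changed less, from 0.45 (edgeR adjusted p = 0.0158) to 0.39 (0.0512). The part of microglial content in the results was not tested. Camk2d, the gene from which the transgene is made, had 67.8 ± 36.7 CPM in transgenic and 72.0 ± 18.6 CPM in control libraries (SD, n = 6 and 5; log2 fold change -0.08, edgeR adjusted p = 0.873).

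Hras and Nras encode closely related proteins: both have 189 residues, of which 162 are identical (85.7%). Their transcripts differ more in base composition. Over the longest annotated transcripts the GC content is 55.2% for Hras and 42.6% for Nras, so these genes for closely related proteins lie on opposite sides of the median of all genes tested, 49.6%.

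Between the genotypes, 2 of the 7 genes rose in transgenic CA1, 1 fell and 4 did not pass the test. Hras and Map2k2 rose by 13.8% and 20.3%, and Braf fell by 20.6%. The test was edgeR's quasi-likelihood test over all 17293 genes, with a call at a Benjamini-Hochberg adjusted p under 0.05. Of all genes tested, 7.41% were called higher and 10.5% lower in transgenic libraries, 17.9% in either direction. The 7 genes were chosen with earlier results of these data known, so their count beside these shares is a description only. The median log2 fold change of the 7 genes was -0.02, beside 0.01 for all genes tested. When the GC trend of each library was removed, 0 of the 7 genes passed, beside 1.98% of all genes (1.16% higher and 0.821% lower). With a length trend removed as well, 0 of the 7 and 1.7% of all genes passed. In bulk tissue, fewer cells of a type and less RNA per cell cannot be told apart.

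**Figure D1:**
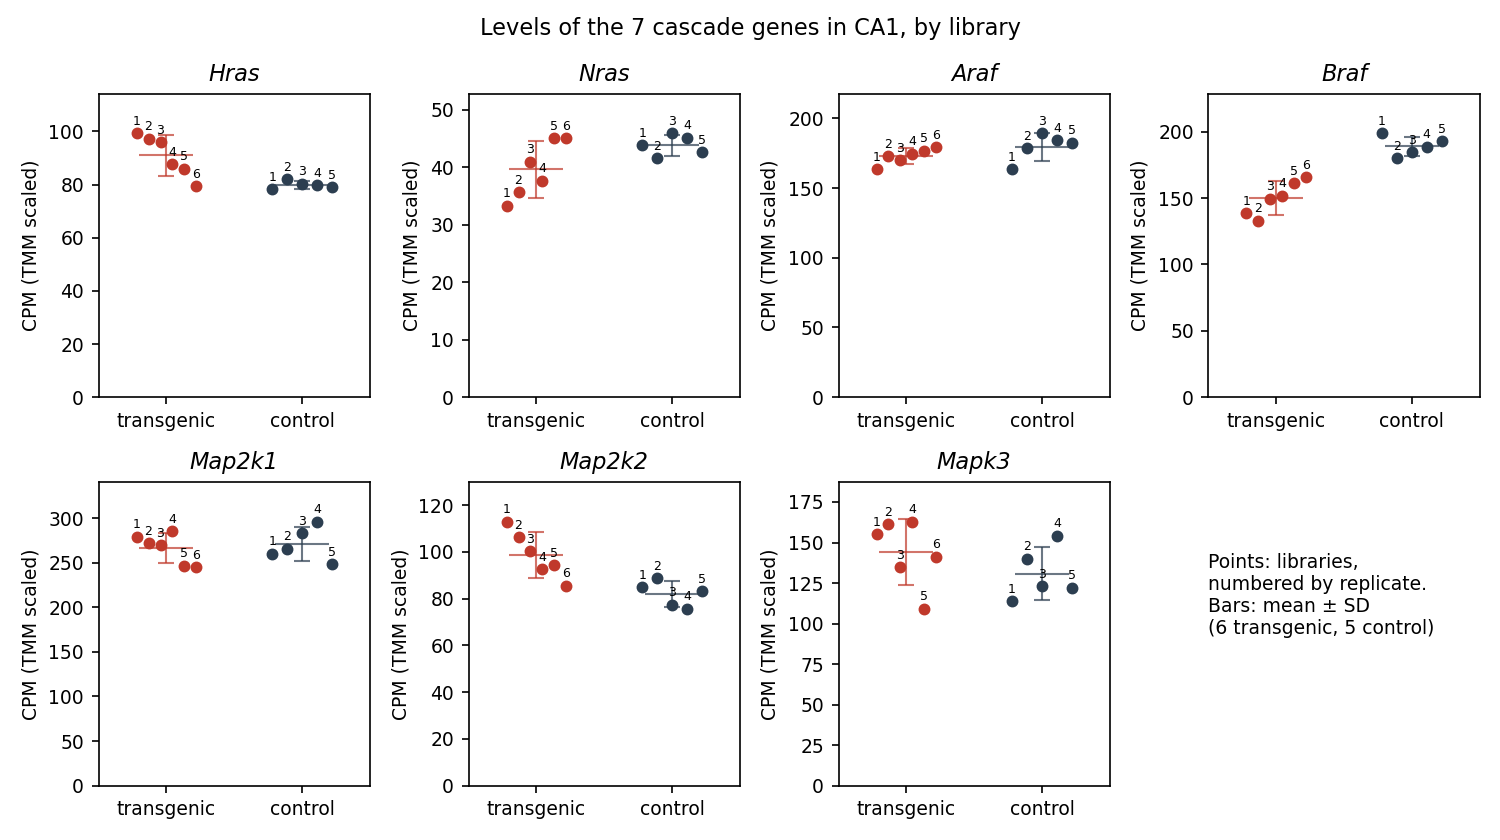
CPM of each of the 7 genes (vertical axes, linear, starting at 0) in 6 transgenic and 5 control libraries, numbered by replicate; bars are the mean ± SD. Braf is the gene whose groups do not overlap, at 133 to 166 CPM in transgenic and 180.3 to 199 CPM in control libraries.

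Hras (ENSMUSG00000025499, chromosome 7, 141189105 to 141194005, minus strand, mm10) is a Ras protein that is anchored by lipid groups and can move between the plasma membrane and the Golgi. Its level was 99.4, 97.3, 96.0, 87.6, 86.0 and 79.4 CPM in transgenic libraries 1 to 6 and 78.4, 82.1, 80.3, 79.8 and 79.0 CPM in control libraries 1 to 5. The controls lay within a narrow band, with an SD of 1.82% of their mean, while the transgenic libraries spread from inside that band to well above it. Transgenic 6 lay inside the control range, and the other 5 lay above it. The means were 91.0 ± 7.83 CPM in transgenic and 79.9 ± 1.45 CPM in control libraries (SD, n = 6 and 5). The log2 fold change was 0.19 ± 0.06 (SE) with an edgeR adjusted p of 0.0444. The call was lost without transgenic 1, 2, 3 or 4 or without control 1, 3, 4 or 5, with an edgeR adjusted p of 0.053 to 0.0996 and a log2 fold change of 0.16 to 0.20. With no filter on low counts the edgeR adjusted p was 0.0717, and with the length trend removed it was 0.0653.

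Nras (ENSMUSG00000027852, chromosome 3, 103058285 to 103067914, plus strand) encodes the other Ras protein of the set, with the fewest counts of the 7 genes, down to 608 in control 5. It had 33.3, 35.7, 41.0, 37.7, 45.1 and 45.1 CPM in transgenic libraries 1 to 6, against 43.9, 41.6, 46.0, 45.2 and 42.6 CPM in control libraries 1 to 5. Transgenic 1, 2, 3 and 4 lay below all controls, and transgenic 5 and 6 lay among them. The log2 fold change was -0.14 ± 0.08 (SE; edgeR adjusted p = 0.206) with a 95% interval of -0.31 to 0.02, so Nras did not pass the test. A processed pseudogene, Nras-ps2, had 0 counts in every library.

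Braf (ENSMUSG00000002413, chromosome 6, 39603237 to 39725463, minus strand) encodes a Raf kinase abundant in neurons with high basal activity towards MEK. It had 139, 133, 149.6, 152, 162 and 166 CPM in transgenic libraries 1 to 6, against 199, 180.3, 185, 189 and 193 CPM in control libraries 1 to 5. Every transgenic library lay below every control, a pattern found in 4.73% of all genes tested. Of the 7 genes Braf alone had groups that did not overlap, as had 7.77% of all genes tested, with 3.04% higher in every transgenic library. The means were 150.1 ± 12.7 CPM in transgenic and 189 ± 7.27 CPM in control libraries (SD, n = 6 and 5), a log2 fold change of -0.33 ± 0.06 (SE; edgeR adjusted p = 0.0114). The call was kept with any 1 of the 11 libraries left out, with log2 fold changes of -0.36 to -0.30 and edgeR adjusted p of 0.00141 to 0.0374. With the length trend of each library removed, the log2 fold change of Braf was -0.17 (edgeR adjusted p = 0.037). Since the groups do not overlap over all 11 libraries, they are apart in any subset of them as well. With high Xist, Braf had 133 to 149.6 CPM in transgenic and 185 to 199 CPM in control libraries. With low Xist it had 152 to 166 CPM in transgenic and 180.3 to 193 CPM in control libraries. Braf shares 146 exon bases with Ndufb2, a complex I subunit gene on the opposite strand. The kit does not mark strand, so reads there cannot be assigned. Ndufb2 had 27.8 CPM in transgenic and 28.6 CPM in control libraries (log2 fold change -0.04, edgeR adjusted p = 0.664).

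Araf (ENSMUSG00000001127, X chromosome, 20797814 to 20860519, plus strand) encodes the Raf kinase with the weakest activity towards MEK. It had 164, 173, 170.1, 175, 177 and 179.5 CPM in transgenic libraries 1 to 6, against 163.5, 178.5, 189.5, 185 and 183 CPM in control libraries 1 to 5. Every transgenic library lay within the range of the controls. The log2 fold change was -0.06 ± 0.05 (SE; edgeR adjusted p = 0.440), with a 95% interval of -0.16 to 0.05. Araf shares 9 exon bases with Syn1, a synaptic vesicle gene on the opposite strand.

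Map2k2 (ENSMUSG00000035027, chromosome 10, 81105915 to 81133975, plus strand) encodes MEK2, one of the kinases that activate ERK. It had 113, 106, 100.3, 92.7, 94.3 and 85.6 CPM in transgenic libraries 1 to 6, against 84.9, 88.8, 77.5, 75.8 and 83.4 CPM in control libraries 1 to 5. Transgenic 6 lay below control 2, and the other 5 transgenic libraries lay above every control. The means were 98.7 ± 9.93 CPM in transgenic and 82.1 ± 5.39 CPM in control libraries (SD, n = 6 and 5), a log2 fold change of 0.27 ± 0.07 (SE; edgeR adjusted p = 0.0256). The call was lost without transgenic 1, 2 or 3 or without control 3, 4 or 5, where the log2 fold change was 0.22 to 0.27 and the edgeR adjusted p 0.0502 to 0.0696.

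Map2k1 (ENSMUSG00000004936, chromosome 9, 64185770 to 64253631, minus strand) encodes MEK1, the close relative of MEK2. It had 279, 271.5, 269.6, 286, 247 and 245 CPM in transgenic libraries 1 to 6, against 259.9, 266, 283, 296 and 249 CPM in control libraries 1 to 5. The groups overlapped, with transgenic 5 and 6 and control 5 at the low end. The log2 fold change was -0.02 ± 0.06 (SE; edgeR adjusted p = 0.811) with a 95% interval of -0.15 to 0.10.

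Mapk3 (ENSMUSG00000063065, chromosome 7, 126759601 to 126765819, plus strand) encodes ERK1, the kinase at the end of the cascade. It had 155, 161.5, 135, 163, 109 and 141 CPM in transgenic libraries 1 to 6, against 114, 140.1, 123, 154 and 122 CPM in control libraries 1 to 5. It varied more within groups than the other 6 genes, with an SD of 14.2% of the mean in transgenic and 12.5% in control libraries. Transgenic 5 was the lowest of all 11 libraries. The log2 fold change was 0.14 ± 0.10 (SE; edgeR adjusted p = 0.361), with a 95% interval of -0.08 to 0.36, which includes changes of the size seen for Hras and Map2k2.

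The high or low state of Xist moved with some of these differences. Where Xist was high, Hras had 96.0 to 99.4 CPM in transgenic and 78.4 to 80.3 CPM in control libraries, and where Xist was low it had 79.4 to 87.6 CPM in transgenic and 79.0 to 82.1 CPM in control libraries. Map2k2 had 100.3 to 113 CPM in transgenic and 75.8 to 84.9 CPM in control libraries where Xist was high. Where Xist was low it had 85.6 to 94.3 CPM in transgenic and 83.4 to 88.8 CPM in control libraries. Nras had 33.3 to 41.0 CPM in transgenic and 43.9 to 46.0 CPM in control libraries where Xist was high. Where Xist was low it had 37.7 to 45.1 CPM in transgenic and 41.6 to 42.6 CPM in control libraries. For all 3 genes the groups were apart where Xist was high and overlapped where it was low. There were 3 and 3 libraries in the first case and 3 and 2 in the second. The share of all genes tested with this pattern is not given here. The transgenic libraries with high Xist were also those with the steepest GC slopes, so among transgenic libraries the 2 cannot be told apart. Whether the genotype difference depends on this state was not tested. With Xist added to the fit as a covariate, Hras (log2 fold change 0.20, edgeR adjusted p = 0.0226), Map2k2 (0.27, 0.0189) and Braf (-0.35, 0.00485) were still called.

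Levels can be compared between genes only per length of transcript. In CPM per kilobase of merged exons, Map2k1 stood highest at 78.5 ± 4.97 in transgenic and 79.8 ± 5.56 in control libraries (SD, n = 6 and 5). Mapk3 came next at 63.9 ± 9.06 in transgenic and 57.9 ± 7.21 in control libraries. Araf had 26.4 ± 0.855 in transgenic and 27.5 ± 1.51 in control libraries, and Hras had 24.4 ± 2.10 in transgenic and 21.4 ± 0.389 in control libraries. Among transgenic libraries the ranges of Araf and Hras overlapped (25.0 to 27.4 and 21.3 to 26.6), while among controls they did not. Map2k2 had 17.4 ± 1.75 in transgenic and 14.5 ± 0.952 in control libraries. Braf had 10.8 ± 0.917 in transgenic and 13.6 ± 0.525 in control libraries, and its control range (13.0 to 14.4) overlapped that of Map2k2 (13.4 to 15.7). Nras was lowest at 7.44 ± 0.921 in transgenic and 8.22 ± 0.337 in control libraries. The order was the same in both genotypes. When the length of the longest transcript was used instead, Map2k2 (41.0 in transgenic, 34.1 in control) stood above Hras (32.2 in transgenic, 28.3 in control), and the other ranks did not change.

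In sign, though not in order, the fold changes of the 7 genes ran with GC content. Map2k2, Mapk3 and Hras have the highest GC content of the 7 (60.4%, 57.6% and 55.2%) and had positive log2 fold changes of 0.14 to 0.27. Map2k1 has 51.2% and lay near 0, and Araf, Braf and Nras (45.4%, 42.6% and 42.6%) had log2 fold changes of -0.33 to -0.06. Genes of like GC content had unlike values: Braf stood at -0.33 and Nras at -0.14. Their merged exons hold 13862 and 5331 bases, and with the length trend removed they stood at -0.17 and -0.13. Mapk3 (0.14) stood below Hras (0.19) with the higher GC content. Differences between genes were not tested. With the GC trend of each library removed, the log2 fold changes were 0.05 for Hras (edgeR adjusted p = 0.567), 0.06 for Map2k2 (0.400) and -0.12 for Braf (0.113). The edgeR calls of all 3 genes were lost in that fit, in which 1.98% of all genes were called. Nras (0.07), Araf (0.05) and Mapk3 (-0.03) changed sign in that fit, all without passing the test before or after. Braf remained just below the controls in every transgenic library after the removal, with a gap of 0.00631 in log2 CPM between the groups. Its log2 CPM was then 7.26 to 7.36 in transgenic and 7.36 to 7.55 in control libraries. The share of all genes whose groups stayed apart after the removal is not given here. With GC content taken over all annotated transcripts, the log2 fold change of Braf was -0.022 (edgeR adjusted p = 0.848). With the GC and length trends both removed, Braf had a log2 fold change of -0.05 (edgeR adjusted p = 0.406). The part that library GC content plays in the differences was not tested further, since the slopes separate the genotypes.

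**Figure D2:**
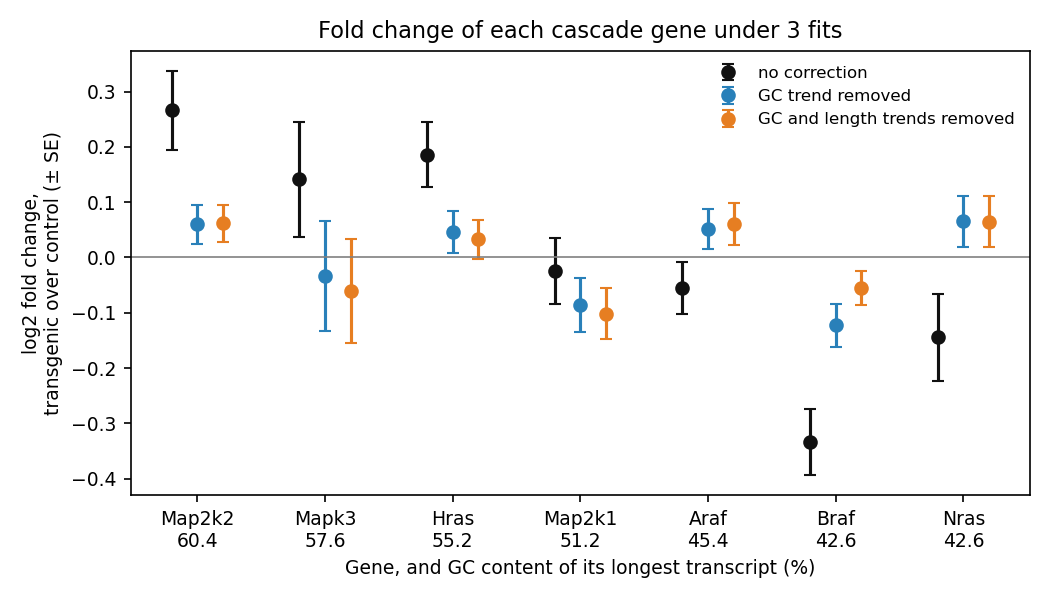
Log2 fold change (transgenic over control, ± SE) of the 7 genes under edgeR with no correction, with the GC trend of each library removed, and with the GC and length trends removed; genes run by falling GC content of the longest transcript. Without correction the values lie between -0.33 and 0.27, and with the GC trend removed between -0.12 and 0.07.

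**Figure D3:**
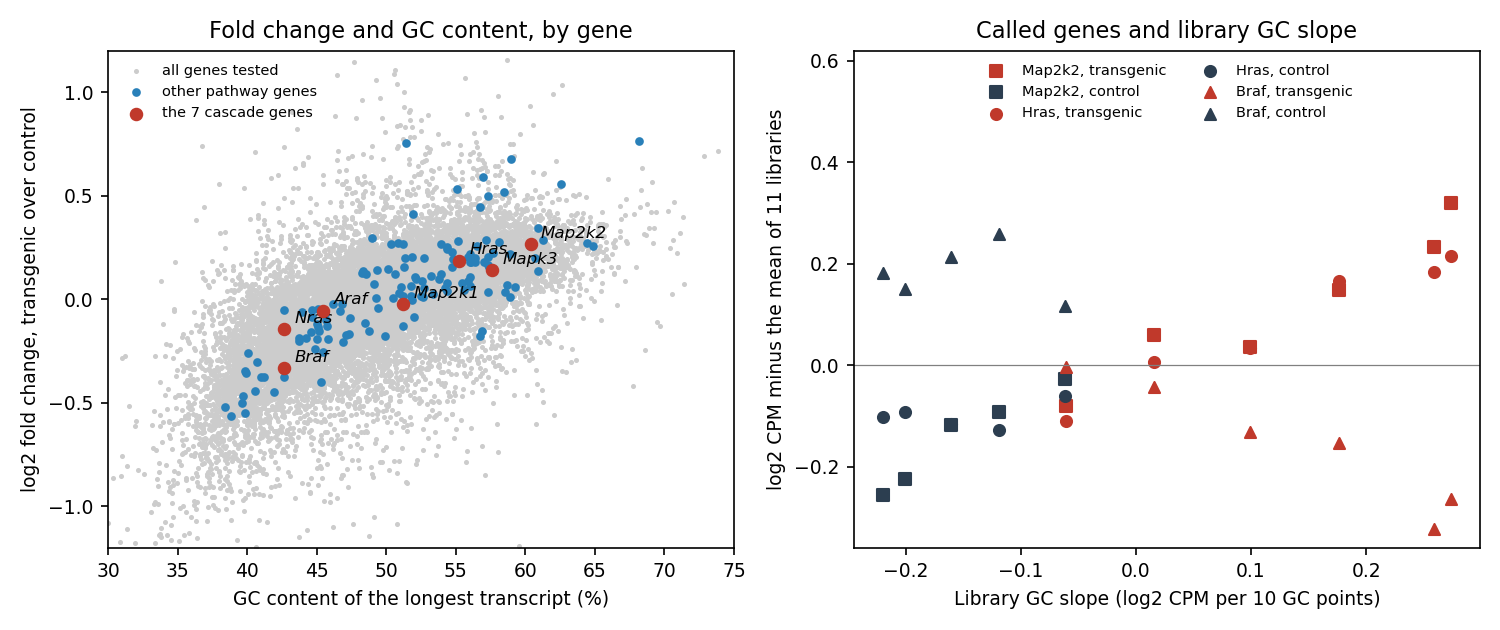
Left, log2 fold change (transgenic over control) against GC content of the longest transcript for genes tested, the other pathway genes and the 7 cascade genes; the axes leave out the most extreme genes. Right, log2 CPM of Map2k2, Hras and Braf minus their mean over the 11 libraries, against the GC slope of each library: Map2k2 and Hras are highest and Braf lowest in transgenic 1 and 2, whose slopes are 0.27 and 0.26.

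Ratios within a library compare the 2 genes of a pair without a common scale factor, and they are given as a description. Araf over Braf, in log2 of CPM per kilobase, was 1.29 ± 0.10 in transgenic and 1.01 ± 0.12 in control libraries (SD, n = 6 and 5). The lowest transgenic library lay above the highest control, at 1.197 and 1.122. These genes have 45.4% and 42.6% GC. With the GC trend removed the ratio was 1.24 ± 0.06 in transgenic and 1.07 ± 0.13 in control libraries (SD, n = 6 and 5). The ranges then narrowly failed to overlap, with the lowest transgenic library at 1.202 and the highest control at 1.197. The share of other gene pairs with ratios apart is not given here. The GC content of Araf depends on the transcripts counted: over all its annotated transcripts it is 50.6%. With that measure for every gene, the log2 fold changes were -0.09 for Araf (edgeR adjusted p = 0.336) and -0.02 for Braf (0.848). Araf was then the lower of the pair, whereas without correction Braf was, so the direction of the ratio depends on the GC measure.

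Hras over Nras was 1.72 ± 0.29 in transgenic and 1.38 ± 0.07 in control libraries, and the highest controls lay among the transgenic libraries. After removal of the GC trend it was 1.55 ± 0.12 in transgenic and 1.57 ± 0.04 in control libraries, a difference of -0.02 in place of 0.34. Map2k2 over Map2k1 was -2.17 ± 0.12 in transgenic and -2.46 ± 0.18 in control libraries, with overlap. After removal of the GC trend it was -2.24 ± 0.08 in transgenic and -2.38 ± 0.11 in control libraries.

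**Figure D4:**
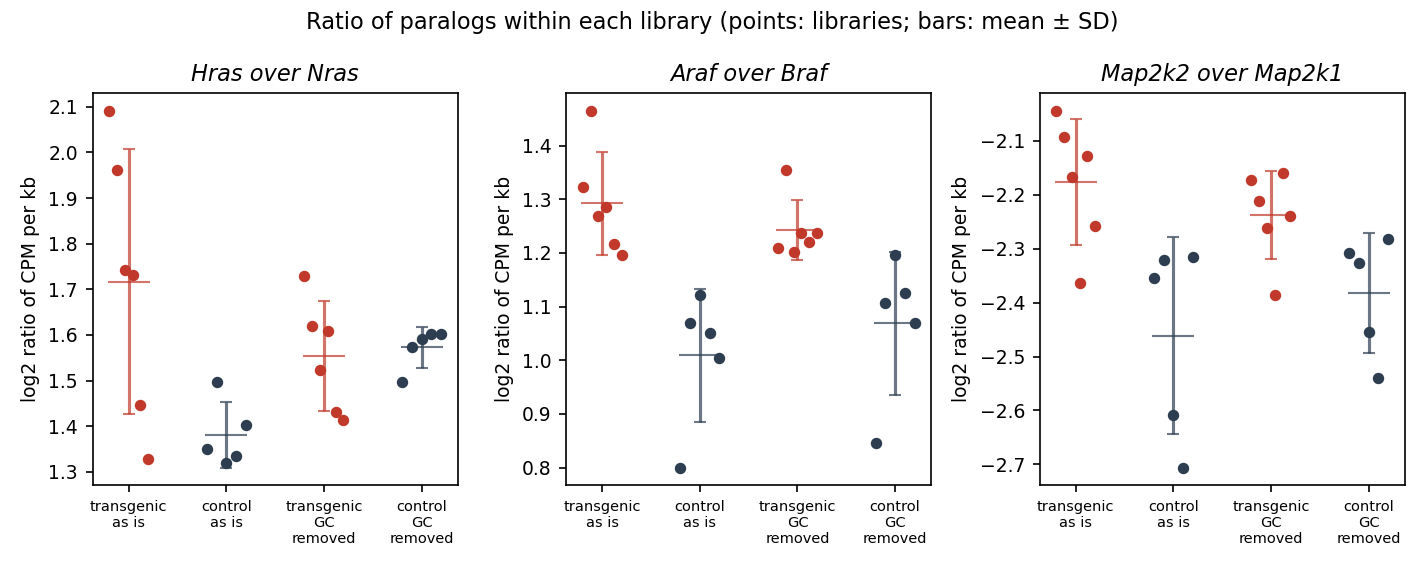
Log2 ratio of CPM per kilobase of Hras over Nras, Araf over Braf and Map2k2 over Map2k1 in each library (points) with mean ± SD (bars), as counted and with the GC trend of each library removed. Only the Araf over Braf ratio is apart between the groups in both forms, with a mean of 1.29 in transgenic and 1.01 in control libraries as counted. With the GC trend removed its lowest transgenic value is 1.202 and its highest control value 1.197.

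The genes around the cascade were described through 8 lists that hold 139 genes, of which 136 were measured. In edgeR 13 of them rose and 15 fell, beside 7.41% and 10.5% of all genes tested. Their median log2 fold change was 0.06, beside 0.01 over all genes tested. The 13 higher genes have a GC content of 48.3% to 64.9%, and 12 of them lie above the median of all genes, as do 84 of the 136 measured. The 15 lower genes have 38.4% to 46.9%, and 0 of them lie above it. After removal of the GC trend, 1 was higher and 1 lower, and the median log2 fold change was 0.00. The number of higher genes varied with the libraries kept. It was 3 without transgenic 1, 2 without transgenic 2, 2 without transgenic 3 and 20 without transgenic 6. Among controls it was 6 without control 1, 4 without control 3, 2 without control 4 and 2 without control 5. The lower count was 11 to 22.

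Among 17 measured Ras activators, which load Ras with GTP or bring exchange factors to receptors, 0 rose and 1 fell. That gene was Sos1, an exchange factor for Ras, with 62.9 ± 6.95 CPM in transgenic and 81.6 ± 4.23 CPM in control libraries (SD, n = 6 and 5; log2 fold change -0.37, edgeR adjusted p = 0.0119). Among 17 genes for GTPase-activating proteins and lipid-modifying enzymes of Ras, 3 rose and 4 fell. The lower ones switch Ras off: Rasa1 had 56.3 ± 7.35 CPM in transgenic and 76.9 ± 5.52 CPM in control libraries (log2 fold change -0.45, edgeR adjusted p = 0.0117). Rasa2 (-0.35, 0.0126), Rasal2 (-0.21, 0.0155) and Nf1, which encodes neurofibromin (-0.24, 0.0172), were lower too by edgeR. The higher ones handle the lipid tail of Ras and related proteins. They were Fntb, a farnesyltransferase subunit (log2 fold change 0.23, edgeR adjusted p = 0.0209), Pde6d, a carrier of prenylated proteins (0.20, 0.0291), and Rce1, a protease that trims them (0.29, 0.0374). Of the 7 called genes of this list, Rasa1 was still called with the GC trend removed (log2 fold change -0.21, edgeR adjusted p = 0.0476) but not with the length trend removed as well (-0.19, 0.0657), and with the GC content of all transcripts its log2 fold change was 0.07 (edgeR adjusted p = 0.613).

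Among 10 measured relatives of the 7 genes, 1 rose and 2 fell, with a median log2 fold change of -0.03. The higher one was Rras, a Ras relative that acts on cell adhesion, with 7.88 ± 0.525 CPM in transgenic and 6.51 ± 0.486 CPM in control libraries (log2 fold change 0.28, edgeR adjusted p = 0.0357). Among 26 measured scaffolds and regulators of Raf, MEK and ERK, 2 rose and 4 fell. Cdc37, a co-chaperone that loads kinases such as Raf onto Hsp90, had 138 ± 11.7 CPM in transgenic and 115 ± 5.66 CPM in control libraries (log2 fold change 0.27, edgeR adjusted p = 0.0161). It was still called with the GC trend removed (0.23, edgeR adjusted p = 0.0419) and with the length trend removed as well (0.25, 0.0403), but not with the GC content of all transcripts (0.21, 0.0554). With the GC trend removed and 1 library left out, the calls of Cdc37 and Rasa1 were kept without transgenic 5, transgenic 6 or control 2, and each of the other such fits called 0 of all genes tested. Pebp1, the Raf kinase inhibitor protein, rose by 0.26 on the log2 scale (edgeR adjusted p = 0.0155). Rap1a, a GTPase that can activate B-Raf, had 14.1 ± 2.31 CPM in transgenic and 20.8 ± 1.89 CPM in control libraries (log2 fold change -0.56, edgeR adjusted p = 0.0117). The related Rap1b (-0.36, 0.0449), the Raf-activating scaffold Shoc2 (-0.30, 0.0186) and the Ras-pathway inhibitor Spred1 (-0.38, 0.0307) were lower too by edgeR.

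Among 13 measured genes listed as ERK phosphatases, 3 rose and 0 fell, beside 7.41% and 10.5% of all genes tested. The median log2 fold change of the list was 0.20, or 0.06 with the GC trend removed. The higher genes were Ptpn5, the neuronal phosphatase STEP (log2 fold change 0.20, edgeR adjusted p = 0.0298), Ppp2r1a, a scaffold subunit of PP2A (0.19, 0.0321), and Ppp5c (0.18, 0.0412). No measured Dusp gene of the list passed the test, nor did Ppp2ca (-0.09, edgeR adjusted p = 0.351) or Ppp2cb (0.05, 0.431). Among 19 kinases and transcription factors that ERK activates, 2 rose and 4 fell. The lower ones were Etv1 (log2 fold change -0.55, edgeR adjusted p = 0.0125), the ribosomal S6 kinase Rps6ka3 (-0.45, 0.0150), the histone and CREB kinase Rps6ka5 (-0.38, 0.0153) and the transcription factor gene Creb1 (-0.50, 0.0190). The higher ones were the kinase genes Mknk2 (log2 fold change 0.27, edgeR adjusted p = 0.0281) and Rps6ka4 (0.26, 0.0349).

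Among 25 transcripts known to be induced through ERK, 0 rose and 1, Spred1, fell, although the median log2 fold change was 0.22 and was 0.13 with the GC trend removed. Their summed level was 1164 to 1964 CPM in transgenic and 1056 to 1814 CPM in control libraries. Egr1, an immediate early transcription factor, had 222 ± 49.7 CPM in transgenic and 157 ± 60.0 CPM in control libraries (log2 fold change 0.50, edgeR adjusted p = 0.206). Arc, an immediate early gene of the synapse, had 293 ± 108 CPM in transgenic and 183 ± 95 CPM in control libraries (log2 fold change 0.68, edgeR adjusted p = 0.231). Dusp6, an ERK phosphatase that ERK itself induces, had 79.96 ± 20.1 CPM in transgenic and 65.1 ± 18.1 CPM in control libraries (log2 fold change 0.29, edgeR adjusted p = 0.308). These 3 genes were named after their values were seen. Among 18 genes of the parallel p38 and JNK cascades, 2 rose and 0 fell. They were the kinases Map3k10 (log2 fold change 0.25, edgeR adjusted p = 0.0357) and Map3k12 (0.14, 0.0499). With the GC trend removed Map3k10 stood at -0.01 (edgeR adjusted p = 0.925) and Map3k12 at 0.15 (0.0632). With the length trend removed as well, Map3k12 was called (0.18, edgeR adjusted p = 0.0418) and Map3k10 was not (-0.02, 0.845). With the GC content of all transcripts, 0 pathway genes were called higher.

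**Figure D5:**
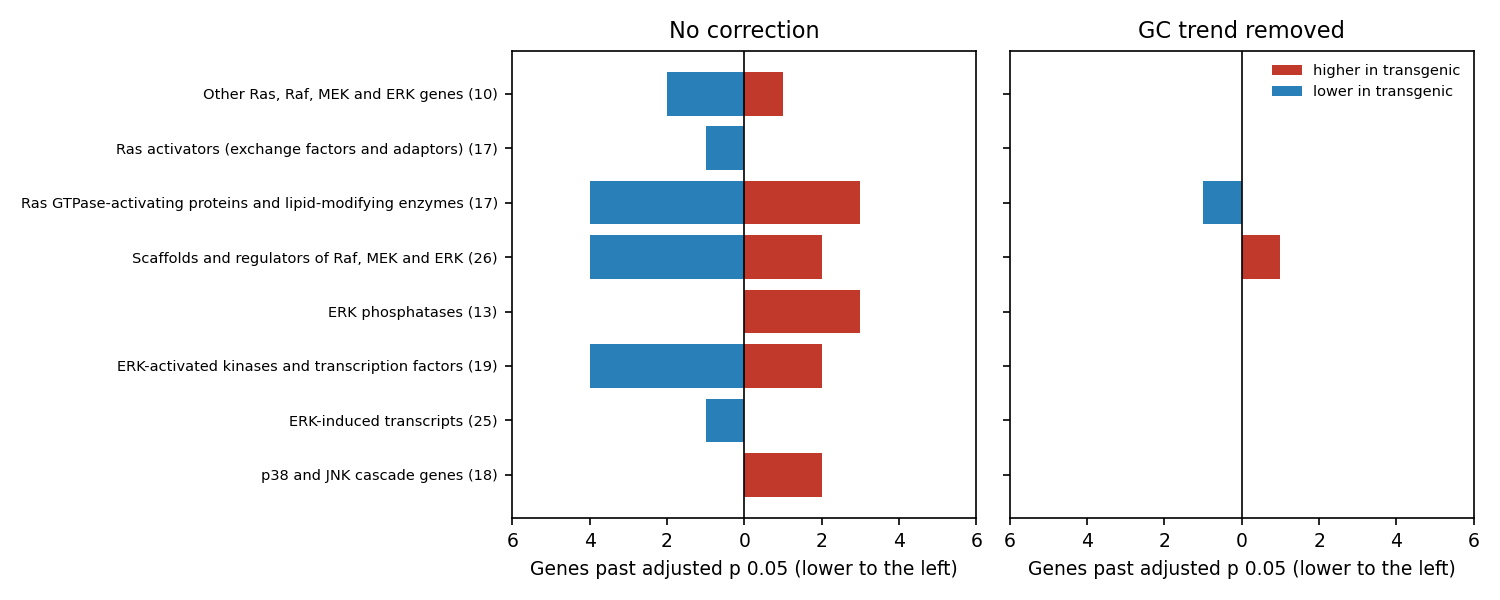
Number of genes past an edgeR adjusted p of 0.05 in each of the 8 pathway lists, higher in transgenic to the right and lower to the left, without correction and with the GC trend of each library removed; the number of measured genes is in brackets. The 13 higher and 15 lower genes on the left panel are 1 higher and 1 lower on the right; Spred1 stands in 2 lists.

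Over the 11 libraries, the genes whose gene-centred log2 CPM was nearest to that of each cascade gene were found among 12529 candidates, by root mean square difference. For Hras they were Psmd4 (0.031) and Csnk1g2 (0.032), for Nras Kbtbd2 (0.037) and Ulk2 (0.038), and for Araf Jkamp and Abraxas2 (0.039 each). For Braf they were Akap11 (0.036) and Rock2 (0.039), for Map2k1 Nsf (0.024) and Nono (0.042), and for Map2k2 Tmem259 (0.035) and Ggt7 (0.036). For Mapk3 the nearest, Pnck and Adcyap1r1, were at 0.093 each, farther than for any of the other 6 genes. Mapk3 itself also varied most about its own mean (root mean square 0.194), and Araf least (0.064). All these nearest genes share libraries, depth and library GC trends with the cascade genes. Braf has 42.6% GC beside 41.9% and 41.4%, and Map2k2 60.4% beside 61.7% and 58.8%. Others were less close: Nras has 42.6% beside 45.1% and 47%, and Mapk3 57.6% beside 55.7% and 52.4%.

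The authors' deposited table of higher genes lists Map2k2 (log2 fold change 0.26, adjusted p = 0.00806) and Hras (0.18, 0.0199). The authors' deposited table of lower genes lists Braf (-0.33, adjusted p = 9.38e-05), and the other 4 cascade genes are in neither of the authors' deposited tables.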

How the data were processed

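The authors deposited whole-number counts of reads for every gene and library, on build mm10. The tools named per the submitters' processing notes are Subread 1.5.1 with featureCounts, STAR 2.5.2b and FastQC 0.11.5. Their settings are not given in these sources. Per the labels' protocols, libraries came from the TruSeq RNA kit v2, which does not mark strand, and single reads had 50 bases. The authors also deposited tables with a log2 fold change and an adjusted p-value per gene; their 22 columns of per-library values were not used.

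Counts were tested with edgeR 4.0.16 in R 4.3.3 (filterByExpr by genotype, TMM, quasi-likelihood F test, all 11 libraries, no covariate). The 17293 genes tested held 99.9% of the counts. Standard errors came from the fold change and F, and 95% intervals from these and the moderated degrees of freedom. CPM values are TMM scaled, and log2 CPM had a prior count of 2. GC content was that of the longest GENCODE transcript (17246 genes had one) and length that of merged exons. A GC or length trend was removed as an offset, from a lowess curve (span 0.3) of each library's deviation from the gene mean of log2 CPM. The procedure was run on simulated counts, where a planted GC trend had the same slope in every library of a group. The real slopes differed within groups, so that run does not show how well the removal works here. To look for a library deposited in duplicate, libraries of a group were compared by chi-square, which was at least 6.24 per degree of freedom; this does not show that libraries are separate animals. Nothing in the labels says so either, and p-values then measure only the spread between these samples, possibly technical.

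The 7 genes and the lists were chosen with earlier results of these data known. Besides the 7 genes, the text names Camk2d, up to 3 called genes of each list with the smallest p, the 2 nearest patterns per gene, and further called list genes chosen after their values were seen; called genes with no name in the text are not reported here. Of the marker lists not described in the text, edgeR called 2 of 9 interneuron genes higher, 1 of 8 astrocyte genes higher and 1 lower, 1 of 8 endothelial and mural genes lower, 1 of 5 heart muscle genes lower and 0 of 8 oligodendrocyte genes. The alternatives were DESeq2 1.42.0 and its size factors, upper-quartile scaling, no filter, CPM above 1 in 5 libraries, the replicate number as a block, limma 3.58.1 voom with sample weights, sva 3.50.0 with 1 surrogate variable, Xist as a covariate, the trend removals, and leaving out each library. GC content over all transcripts and Xist together with the GC removal were added after seeing the data.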

Additional observations from a re-analysis of the deposited data

How the results depend on the processing

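Without correction, edgeR called 1282 genes higher and 1812 lower, and the pathway lists held 13 higher and 15 lower. Without the filter on low counts 662 genes and 8 pathway genes were higher, and Hras had a log2 fold change of 0.183. With voom 2164 genes were higher, 21 pathway genes higher and 24 lower, and Map2k1 reversed to 0.011. Replicate numbers do not pair the libraries: same-numbered libraries correlated at -0.185 to 0.197 in their deviations, 1 of 5 above 0.1, and 1 of 5 was the best match. With the replicate block 2053 genes and 29 pathway genes were higher, and Map2k1 was at 0.00034. With the length trend removed 9 pathway genes were lower, Hras was at 0.168, Braf, still called, at -0.17 beside -0.334, and Camk2d reversed to 0.14. Every removal of the GC trend left 0 cascade genes called. With the GC trend removed, 200 genes and 1 pathway gene were higher, and 142 genes and 1 pathway gene lower; the log2 fold changes were 0.046 for Hras, 0.065 for Nras, 0.052 for Araf, -0.123 for Braf, 0.06 for Map2k2, -0.034 for Mapk3, 0.004 for Rasa2, -0.01 for Map3k10 and 0.054 for Camk2d, and the difference of the Hras over Nras ratio was -0.018. With GC and length trends removed, 200 genes and 2 pathway genes were higher, and 94 genes and 0 pathway genes lower, with 0.033 for Hras, 0.065 for Nras, 0.061 for Araf, -0.055 for Braf, 0.062 for Map2k2, -0.061 for Mapk3, 0.082 for Rasa2, -0.019 for Map3k10 and 0.167 for Camk2d. With the replicate block and the GC trend removed, 431 genes and 5 pathway genes were higher, and 315 genes and 1 pathway gene lower, with 0.067 for Hras, 0.055 for Nras, 0.056 for Araf, -0.12 for Braf, 0.073 for Map2k2, -0.051 for Mapk3 and 0.02 for Rasa2. With the GC content of all transcripts, 106 genes and 0 pathway genes were higher, and 110 genes and 0 pathway genes lower, with 0.011 for Hras, -0.022 for Braf, 0.08 for Map2k2, -0.022 for Mapk3, 0.066 for Rasa1, 0.045 for Rasa2, -0.001 for Map3k10 and 0.046 for Camk2d. With the GC trend removed and Xist as a covariate, 426 genes and 1 pathway gene were higher, and 299 genes and 1 pathway gene lower, with 0.054 for Hras, 0.065 for Nras, 0.05 for Araf, -0.124 for Braf, 0.064 for Map2k2, -0.029 for Mapk3, 0.012 for Rasa2 and -0.008 for Map3k10. Leaving out 1 library gave 361 to 2132 genes higher and 794 to 2580 lower, 2 to 20 pathway genes higher and 11 to 22 lower, and 1 to 3 cascade genes called. The log2 fold changes were then 0.159 to 0.222 for Hras, -0.186 to -0.1 for Nras, -0.088 to -0.034 for Araf, -0.365 to -0.301 for Braf, -0.052 to 0.01 for Map2k1, 0.224 to 0.304 for Map2k2, 0.095 to 0.209 for Mapk3, -0.387 to -0.311 for Rasa2, 0.217 to 0.297 for Map3k10 and -0.384 to 0.042 for Camk2d. With the GC trend also removed, leaving out 1 library gave 0 to 540 genes higher and 0 to 402 lower, 0 to 2 pathway genes in each direction and 0 cascade genes called, where all fits but those without transgenic 5, transgenic 6 or control 2 called 0 of all genes and so say nothing of single calls, with 0.034 to 0.066 for Hras, 0.044 to 0.087 for Nras, 0.025 to 0.065 for Araf, -0.142 to -0.094 for Braf, -0.112 to -0.055 for Map2k1, 0.041 to 0.073 for Map2k2, -0.084 to 0.049 for Mapk3, -0.018 to 0.02 for Rasa2, -0.021 to 0.008 for Map3k10 and -0.211 to 0.193 for Camk2d. The cause of these changes was not tested. Depth was smallest in control 5, where Nras had 608 counts.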
